A study of Drosophila melanogaster with 2 samples.

Results

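Intergenic Jing-GFP peaks away from promoters were the 455 thresholded peaks whose summit lay in no annotated gene span and over 500 bp from every annotated transcription start site (17.5% of the list, which held 2138 others, 95% Wilson interval 16.1 to 19.1). They were called from ChIP-seq, the sequencing of DNA that an antibody, here one against GFP, pulls down with its protein. The chromatin was that of whole Drosophila melanogaster embryos of both sexes, aged 0 to 16 h, of the strain jing-GFP, which stably expresses Jing with GFP at its C terminus. The 2 biological replicates, which the labels number 2 and 3, form a single group, so no samples could be tested against each other. The sources used here do not give the promoter that drives the fusion, untagged embryos were not analysed here, and a peak in whole embryos cannot be assigned to a cell type. The other thresholded peaks were 1059 promoter peaks (summit within 500 bp of a start site), 603 deep intronic peaks (in a gene, in no exon, over 2 kb from a start site) and 476 other peaks in genes.

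Jing is a zinc finger protein related to the vertebrate AEBP2 proteins, which are partners of Polycomb repressive complexes. Genetic work in Drosophila placed it in the development of the trachea and of the central nervous system midline. Intergenic DNA of the fly holds enhancers, silencers, insulators and Polycomb response elements, which can act on a neighbouring gene or on one farther away. No peak is therefore assigned to a target gene. Where a single flanking gene is named, that gives the position of the peak and does not say that it acts on that gene.

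The 6-letter sequence with the lowest p for its excess at these summits was CACTGA, which lay within 100 bp of the summit in 105 of 455 intergenic peaks. The 200 bp around 4 summits are shown, on the plus strand of the Release 6 assembly (RefSeq), because 3 of them hold the sequence and the strongest intergenic peak, near tara, does not. Capitals mark CACTGA or its reverse complement.
slp1 and slp2 (chr2L:3832427-3832626): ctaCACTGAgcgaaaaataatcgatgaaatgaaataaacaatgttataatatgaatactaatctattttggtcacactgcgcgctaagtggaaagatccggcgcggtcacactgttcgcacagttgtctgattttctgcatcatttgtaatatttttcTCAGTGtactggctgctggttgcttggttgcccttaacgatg
noc (chr2L:14502659-14502858): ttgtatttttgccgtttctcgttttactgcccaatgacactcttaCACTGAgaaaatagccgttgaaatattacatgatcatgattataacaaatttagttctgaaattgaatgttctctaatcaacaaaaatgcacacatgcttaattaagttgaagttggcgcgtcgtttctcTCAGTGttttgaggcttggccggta
NijA and CG43245 (chr3L:10752786-10752985): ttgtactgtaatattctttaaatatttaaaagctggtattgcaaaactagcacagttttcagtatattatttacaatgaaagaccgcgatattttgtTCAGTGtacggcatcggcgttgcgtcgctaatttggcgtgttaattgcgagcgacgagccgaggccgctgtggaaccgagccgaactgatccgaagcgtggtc
tara (chr3R:16222385-16222584): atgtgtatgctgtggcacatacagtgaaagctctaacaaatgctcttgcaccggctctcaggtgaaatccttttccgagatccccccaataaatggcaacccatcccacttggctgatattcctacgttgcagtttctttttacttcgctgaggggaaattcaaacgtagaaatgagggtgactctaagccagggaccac
The windows beside slp1 and slp2 and beside noc each hold it on either side of the summit, in opposite orientation. Sites of the 9 strongest intergenic peaks on 2L, 3L, 3R and X that hold CACTGA with at least 6 of the 8 neighbouring bases described further on are aligned next, each read so that CACTGA, in capitals, runs 5′ to 3′, and named by the protein-coding genes to the left and right.
slp1 and slp2 (chr2L:3832571-3832600, minus strand): gcagccagtaCACTGAgaaaaatattacaa
noc and CG33648 (chr2L:14502694-14502723, plus strand): gacactcttaCACTGAgaaaatagccgttg
CG5953 and CG31816 (chr2L:16535865-16535894, plus strand): aaatggcttaCACTGAacaaattagatcta
by and mura (chr3R:9534386-9534415, minus strand): ctatgggttcCACTGAaagaaaaatgtaaa
aop and CG10874 (chr2L:2180166-2180195, plus strand): cgtgggtatgCACTGAaagaaaatctagat
E(spl)mbeta-HLH and E(spl)malpha-BFM (chr3R:26009089-26009118, minus strand): gtctgatttgCACTGAacaaaaagttatcg
NijA and CG43245 (chr3L:10752869-10752898, minus strand): cgatgccgtaCACTGAacaaaatatcgcgg
Cyp6t1 and GCS2alpha (chrX:21593989-21594018, plus strand): gtgtggcgcaCACTGAgagaaagaacagag
Doc2 and Doc1 (chr3L:9025961-9025990, minus strand): cagattggtaCACTGAgcgaaaatgtggca
The A-rich run after CACTGA, and the purine before it in 8 of these 9 sites, were part of that choice and so are shown as a picture of the sequence.

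By signal, the authors' own value for each peak, the intergenic peaks were weaker than promoter peaks and close to deep intronic peaks. Their median signal was 153 (quartiles 123 and 209, range 107 to 1184), against 188 for promoter peaks (quartiles 140 and 315) and 158 for deep intronic peaks (quartiles 127 and 223). Of the intergenic peaks 16.5% were among the 648 strongest of the list, against 33.1% of promoter peaks, a difference of -16.6 percentage points (95% Newcombe interval -20.8 to -11.956). Against the 17.1% of deep intronic peaks the difference was -0.60 points (-5.08 to 4.03), an interval that includes 0. The intergenic share of the list went up as signal went down, with 11.6%, 15.9%, 19.8% and 23.0% in the bins of 648 or 649 peaks from the strongest to the weakest, and it was 30.5% among the 27407 pooled peaks below the threshold. The 12 members just outside the 500 bp limit, within 50 bp of it, had a median signal of 139, against 164 for the 52 promoter peaks just inside it.

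**Figure D1:**
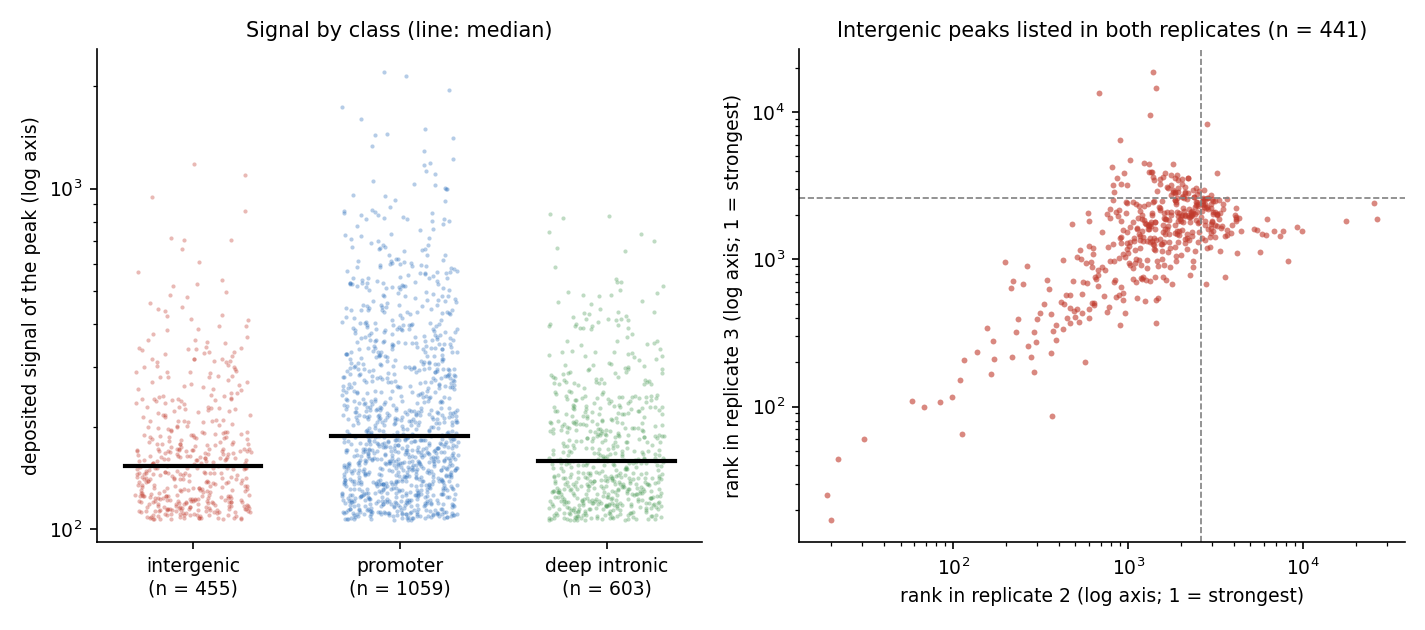
Left, deposited signal of each peak (log axis) for 455 intergenic, 1059 promoter and 603 deep intronic peaks, with the median as a line at 153, 188 and 158. Right, ranks of the 441 intergenic peaks listed in both replicates (log axes, 1 is the strongest, dashed lines at the rank where the thresholded list ends), where most points lie inside both lines and a few lie far outside 1 of them.

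The replicates listed most of the intergenic peaks, at ranks that varied widely. The thresholded list was itself made from these 2 replicates. Their listing of its peaks was thus largely fixed by that choice, and the values here are a description. A summit within 100 bp was listed for 449 in replicate 2 and 446 in replicate 3, for 441 in both and for 1 in neither. The median rank was 1505 in replicate 2 (quartiles 902 and 2314) and 1578 in replicate 3 (quartiles 944 and 2201). Signals of the 2 replicates had a Spearman correlation of 0.54 across the 441 intergenic peaks, against 0.72 across 967 promoter peaks and 0.61 across 581 deep intronic peaks. These describe peaks within the same 2 libraries, and promoter peaks also span a wider range of signals. When each replicate's list was cut to as many of its strongest peaks as the thresholded list holds, both replicates kept 65.3% of intergenic peaks, against 72.0% of promoter peaks, a difference of -6.77 points (-11.97 to -1.71). Widened for the 18 share differences computed, that interval is -14.7 to 0.87 and includes 0. It also depended on where the list ended: with the 5000 strongest of each replicate it was 4.02 points (0.67 to 6.98), the other way round, and against replicate 3 alone it was -1.53 (-5.72 to 2.31). Against deep intronic peaks, of which both kept 66.0%, it was -0.73 points (-6.52 to 5.01).

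Single intergenic peaks could differ strongly in rank between the lists of the 2 replicates, and whether the embryos, the libraries or the peak calling differed was not tested. The largest differences in favour of replicate 2 were a peak between lncRNA:CR44853 and lncRNA:CR44854, at rank 677 in replicate 2 and 13392 in replicate 3, and a peak 3445 bp from croc, a forkhead factor gene, at rank 1392 and 18795. In favour of replicate 3 they were a peak between CG7320 and lncRNA:CR45935, at rank 26517 in replicate 2 and 1883 in replicate 3, and a peak 528 bp from CG10428, at rank 25330 and 2412. In all, 3 members ranked at least 10 times lower in replicate 3 and 2 at least 10 times lower in replicate 2.

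The strongest intergenic peaks lay beside regulators of transcription and signalling as well as beside housekeeping genes. The strongest, at rank 17 of all thresholded peaks, had its summit at 3R 16222485 with a signal of 1184, 910 bp upstream of lncRNA:CR45643 and 3166 bp from tara, which encodes a chromatin-associated coregulator. It ranked 20 in replicate 2 and 17 in replicate 3. The next, at 2R 13035342, had a signal of 1095 and ranks 19 and 25 in replicates 2 and 3. It lay 27431 bp from Su(z)2, a Polycomb group gene, and 9353 bp from CG13323. At 2L 2202416, between COX7AL2 and CG31668, the signal was 948, with ranks 22 and 44. Between blw, an ATP synthase subunit gene, and CycB, a mitotic cyclin gene, it was 858 at 2R 22802952, with ranks 31 and 60, in a gap of only 1340 bp. These 4 peaks were among the 60 strongest of both replicates.

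Signals from 715 down to 525 followed. The peak 554 bp upstream of sp3, with the homeobox gene C15 on its other side, had 715 and ranks 58 and 110 in replicates 2 and 3. The peak 12466 bp from chinmo, which encodes a BTB zinc finger factor of neuronal timing, had 708 and ranks 113 and 65. RFeSP was the protein-coding gene on its other side. Between slp1 and slp2, paired forkhead genes of segmentation, a peak at 5428 bp and 4313 bp from them had 705 and ranks 68 and 100. A peak 6092 bp from sty, which encodes the Sprouty inhibitor of receptor tyrosine kinase signalling, had 608 and ranks 98 and 116. Ids was the protein-coding gene on its other side. The peak 7800 bp from Psc, the Polycomb group paralog of Su(z)2, had 568 and ranks 109 and 152. CG13321 was 2485 bp away on its other side. The peaks between CG43131 and RabGGTa (663), CG17896 and CG17778 (541) and RasGAP1 and CG10809 (525) completed the 12 strongest. The peak beside CG17896 was the least alike of the 12 between the replicates, at rank 366 in replicate 2 and 86 in replicate 3.

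Intergenic peaks were typically a few kb from the nearest start site, and 11 of them (2.42%) were over 20 kb from it, although 25.3% lay in gaps over 20 kb long. The median distance was 2867 bp (quartiles 1294 and 5722, range 504 to 36690), and 287 of 455 lay upstream of that start site (63.1%, 58.6 to 67.4). Since 500 bp was the limit of the rule, distances are a description. So is the upstream share, because a summit downstream of its start site had to lie past the end of that gene. The upstream share of admitted bases was not computed. Per Mb of intergenic sequence that the rule admits, there were 25.5 peaks (95% Poisson interval 19.9 to 32.1) at 0.5 to 1 kb, 23.7 (19.4 to 28.6) at 1 to 2 kb, 16.3 (13.7 to 19.1) at 2 to 5 kb, 10.05 (7.86 to 12.7) at 5 to 10 kb, 9.21 (6.74 to 12.3) at 10 to 20 kb and 1.39 (0.69 to 2.48) beyond 20 kb. Intergenic peaks below the threshold had a nearly even density up to 5 kb, at 287, 300 and 304 per Mb, and 50.3 per Mb beyond 20 kb. Their lower density beyond 20 kb from a start site, where 21.8% of the admitted bases lie, moved with that of the thresholded peaks. What part mappability or the control has in it was not tested. Signal had almost no relation to distance across the 455 peaks (Spearman correlation -0.06).

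**Figure D2:**
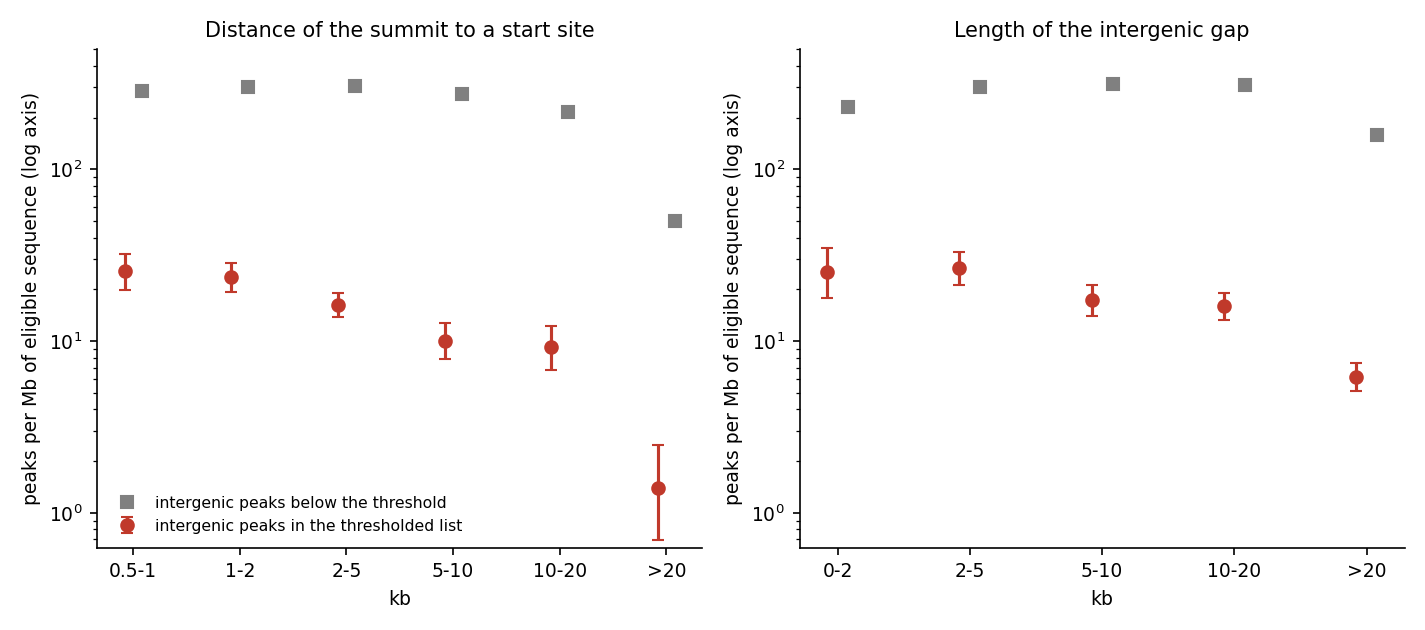
Peaks per Mb of eligible intergenic sequence (log axis) by distance of the summit to the nearest start site (left) and by length of the intergenic gap (right), in kb. Circles with 95% Poisson intervals are thresholded intergenic peaks, which were densest close to start sites and in short gaps, and squares are intergenic peaks below the threshold.

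The gaps that held the peaks were of every orientation. A gap is the stretch between neighbouring gene spans, and 340 of 6528 gaps with admitted bases held an intergenic peak (5.21%). In gaps of up to 2 kb there were 25.2 peaks per Mb (17.8 to 34.8) and in gaps over 20 kb 6.21 (5.13 to 7.45). Gaps between divergent genes held 18.5 per Mb (15.6 to 21.9), tandem gaps 11.5 (9.97 to 13.1) and convergent gaps 11.5 (9.42 to 13.9). Their shares of the peaks were 30.1%, 46.4% and 23.5%, against 20.3%, 50.5% and 25.5% of the admitted bases. By arm, density was 17.1 per Mb on 2L (14.1 to 20.6), 14.9 on 3L (12.5 to 17.6), 12.3 on 3R (9.90 to 14.996), 9.54 on 2R (7.45 to 12.03) and 6.97 on X (4.90 to 9.60). Peaks below the threshold were also sparse on X and 2R, at 161 and 165 per Mb, against 302 on 2L.

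Both genes beside the gap were protein-coding for 199 peaks, 1 of them for 197 and neither for 59. A non-coding RNA gene bounded the gap of 237 peaks and a tRNA gene that of 22. The summit lay in an annotated transposable element in 1 case.

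Some intergenic peaks had another thresholded summit, of any class, nearby. Another thresholded summit lay within 1 kb of 75 of 455 intergenic peaks (16.5%), against 10.9% of promoter peaks (difference 5.62 points, 1.90 to 9.70) and 11.3% of deep intronic peaks (5.21, 1.03 to 9.54). With intervals widened for the 18 share differences computed, that from promoter peaks excludes 0 (0.07 to 11.99) and that from deep intronic peaks does not (-1.14 to 11.9). Gaps with at least 2 intergenic peaks numbered 74 and held 189 of the 455, while 266 gaps held 1. The numbers expected from the lengths of the gaps were not computed.

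The gaps with most peaks were on 3L and 2R. The 75047 bp between NijA, which encodes a ninjurin cell surface protein, and CG43245 (3L 10696878 to 10771924) held 8, with signals from 120 to 282. It also held the summits farthest from a start site and, after 1 beside vvl, next farthest, at 36690 and 32867 bp from CG43245. That one was 33904 bp from the start site of vvl, a POU factor gene of trachea and midline, in a 70507 bp gap with 4 peaks. The gap between tRNA:Ile-TAT-1-2 and CG13898 (3L 770463 to 803426) held 6, with signals from 125 to 388. Between lncRNA:CR44363 and CG7560 (3L 11406095 to 11425157) there were 5, from 120 to 479.

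The Polycomb group pair Psc and Su(z)2 had peak-rich gaps on their outer sides. The 36783 bp between Su(z)2 and CG13323 (2R 13007912 to 13044694) held 5 peaks, with signals from 139 to 1095, and the 10284 bp between CG13321 and Psc (2R 12955713 to 12965996) held 5, from 128 to 568. Those gaps also held 44 and 9 peaks below the threshold. In total 7 intergenic peaks had Psc as a flanking protein-coding gene and 5 had Su(z)2.

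Of 7855 protein-coding genes beside a gap with admitted bases, 565 (7.19%) had an intergenic peak between themselves and the next protein-coding gene. In 12 of the 19 gene lists the 95% Wilson interval of the share lay above 7.19%, in 7 it included it and in 0 it lay below. Of 62 Polycomb target regulators, a list of patterning factor genes known to be covered by Polycomb in fly cells, 30 flanked an intergenic peak (48.4%), as did 9 of 14 tracheal genes, 5 of 9 eye genes, 6 of 12 Hox genes and cofactors, 9 of 22 signalling ligands and receptors, 5 of 13 neuroblast genes and 8 of 23 segmentation genes. Intervals that include 7.19% were those of midline and glia genes (3 of 15), dpr and DIP cell surface genes (2 of 30), muscle genes (1 of 20), cuticle genes (2 of 63), cytosolic ribosomal protein genes (0 of 44, up to 8.03%), haemocyte genes (0 of 10) and germline genes (0 of 4). Gut (3 of 10), Polycomb and Trithorax (5 of 18), ecdysone (3 of 12), appendage (5 of 21) and axon guidance genes (4 of 17) lay between 23.5% and 30% with intervals above it. The lists share genes and were chosen with earlier results of these data known, so the shares and the counts of intervals carry no test. When only the gene of the nearest start site was counted, 27.4% of the Polycomb targets had a peak, against 3.13% of all coding genes, and the share was 35.7% for tracheal, 22.2% for eye, 10% for gut, 9.52% for appendage, 5.56% for Polycomb and Trithorax and 0% for Hox genes. With the nearest gene of any kind on each side it was 16.7% for Hox genes. Single replicates moved some of these short lists by 1.5 times or more: without replicate 2 the eye share was 33.3% and the gut share 10%, and without replicate 3 the share was 27.3% for signalling and 16.7% for ecdysone genes.

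The gaps beside Polycomb target regulators were long, and peaks were also dense in them. The median length of admitted sequence beside a Polycomb target regulator was 26084 bp, against 1293 bp over all coding genes. Per Mb of it there were 29.1 intergenic peaks (95% Poisson interval 21.7 to 38.1) beside Polycomb target regulators, against 12.48 (11.4 to 13.7) over all admitted sequence. Peaks below the threshold moved with them, at 607 against 229 per Mb, and the 2 kinds of peak were thus both denser there. The dpr and DIP genes, which encode immunoglobulin-domain recognition proteins of neurons, had a median of 12341 bp and 1.73 peaks per Mb (0.21 to 6.24), with 84.7 per Mb below the threshold. The Polycomb and Trithorax genes had a short median of 337 bp, 42.1 peaks per Mb (23.0 to 70.6) and 237 per Mb below the threshold. Gut genes had 60.6 (24.4 to 124.8) and eye genes 47.1 (18.95 to 97.1) with 684 and 519 below the threshold, and the intervals of these 3 lists overlap. Tracheal genes, with a median of 38796 bp, had 19.5 peaks per Mb (10.9 to 32.2) and Hox genes 24.1 (9.69 to 49.6). Neuroblast genes had 23.7 (10.8 to 45.0) and appendage genes 12.3 (5.32 to 24.3). The intervals of tracheal, Hox, neuroblast and appendage genes include 12.48. Those of segmentation (25.3, 13.9 to 42.5) and signalling genes (30.1, 14.4 to 55.3) lay above it. Peaks below the threshold were also denser beside these 2 lists, at 610 and 511 per Mb against 229 over all admitted sequence. The 10 peaks in the gaps on the outer sides of Psc and Su(z)2 were among the 14 of the Polycomb and Trithorax list.

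**Figure D3:**
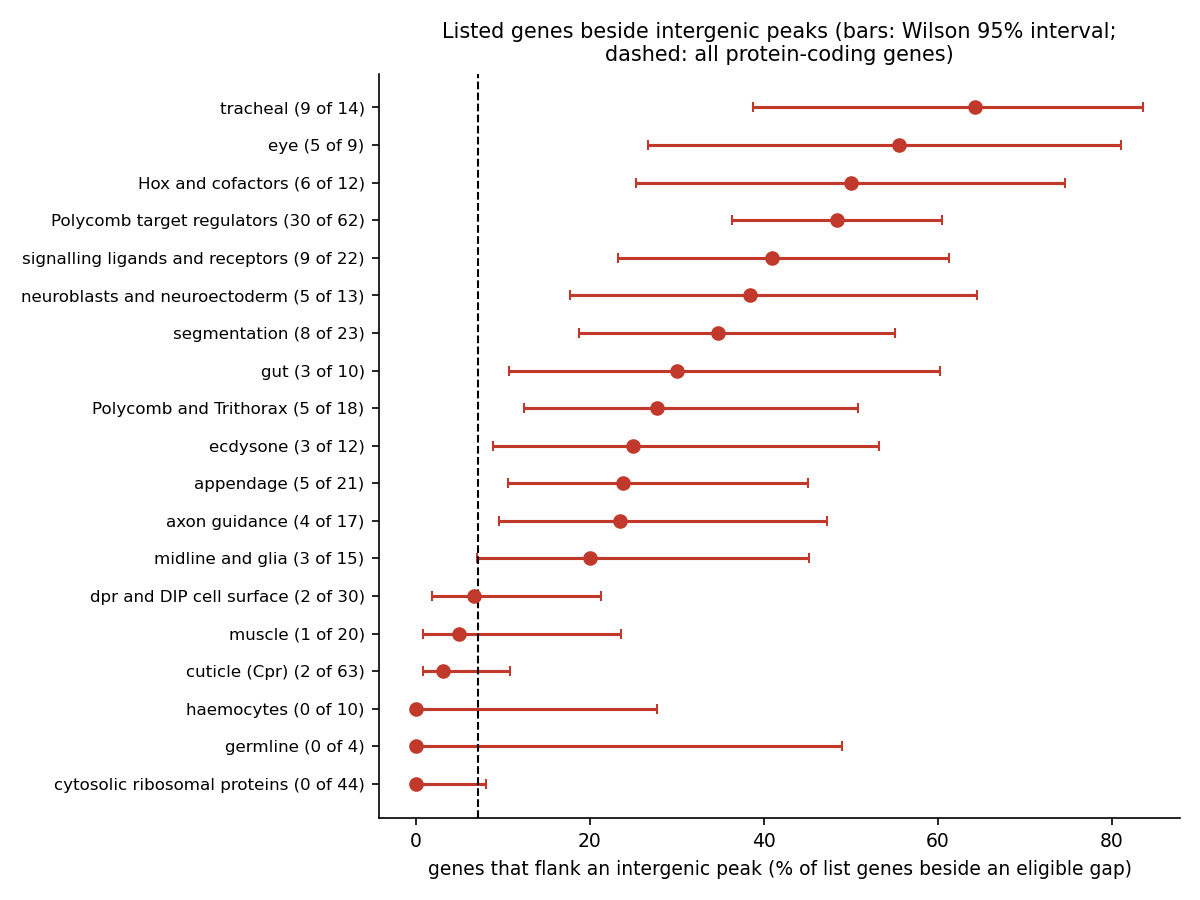
Share of each gene list's members beside an eligible gap that flank an intergenic peak (%), with Wilson 95% intervals and counts in brackets. The dashed line is the share over all protein-coding genes, 7.19%, which tracheal, eye, Hox and Polycomb target genes exceed and which 7 of the 19 intervals include. Shares are not adjusted for the length of the gaps beside the genes.

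Peaks beside these regulators were mostly of ordinary strength. The 52 peaks beside Polycomb target regulators had a median signal of 140, against 153 for all 455. After slp1 and slp2, the strongest of that list was beside Optix, a homeobox gene of the eye, at 460. Among ligands, the peak 3244 bp from upd1, a JAK/STAT ligand gene, had 519, and the peak between wg and Wnt4, both Wnt ligand genes, had 270 at 11073 and 18915 bp from them. Of the Hox list, hth, a homeobox cofactor, had 299 at 25567 bp and abd-A had 264 at 8299 bp. Of the tracheal genes, trh had 193 at 40093 bp, knrl 183 at 1258 bp and salm 176 at 642 bp. Of the segmentation genes, ptc, the Hedgehog receptor gene, had 304 at 5314 bp. Among axon guidance genes robo2 had 246, unc-5 167 and comm 167. Beside ph-p, a further Polycomb group gene, there was a peak of 367.6 at 2142 bp.

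Other listed genes flanked peaks of like strength. In the gut list drm had 311 at 25736 bp and lab 134 at 4756 bp, and otp 121 at 3295 bp. In the neuroblast list D had 162, Dr 154 and pros 150, in the midline and glia list nrv2 had 160 and vvl 156, and in the appendage and eye lists dac had 154 at 524 bp and tsh 138 at 9572 bp. Hr51 (167), Blimp-1 (156) and Hr38 (122) were those of the ecdysone list, eya (107) that of the muscle list, dpr17 (317) and dpr20 (132) those of the dpr and DIP list, and Cpr76Ba (273) and Cpr47Eg (124) those of the cuticle list.

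Genes beside an intergenic peak more often had a promoter peak as well. A thresholded summit lay within 500 bp of a start site of 99 of the 565 flanking genes (17.5%, 14.6 to 20.9), against 581 of the 7290 other genes beside such gaps (7.97%, 7.37 to 8.61), a difference of 9.55 points (6.57 to 13.0). Seen from the peaks, 154 of 455 (33.8%) had a promoter peak at a flanking protein-coding gene. A peak has such a gene on either side, so this share cannot be set against the shares of genes. That of other admitted positions was not computed.

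Summits were poor in G and C. The GC content of the 200 bp at intergenic summits was 36.7% ± 6.93 (SD over 455 peaks) and that of the flanks, 200 bp centred 500 bp away on both sides, was 41.9% ± 6.50. The summit was lower in 339 of 455 (74.5%, 70.3 to 78.3), against 78.1% of promoter and 80.3% of deep intronic peaks. The drop was -5.15 points ± 9.996 in intergenic peaks, -8.16 ± 11.7 in promoter peaks and -6.69 ± 8.12 in deep intronic peaks. All 200 bp windows of admitted sequence had a mean of 40.9%, so the flanks were not low.

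**Figure D4:**
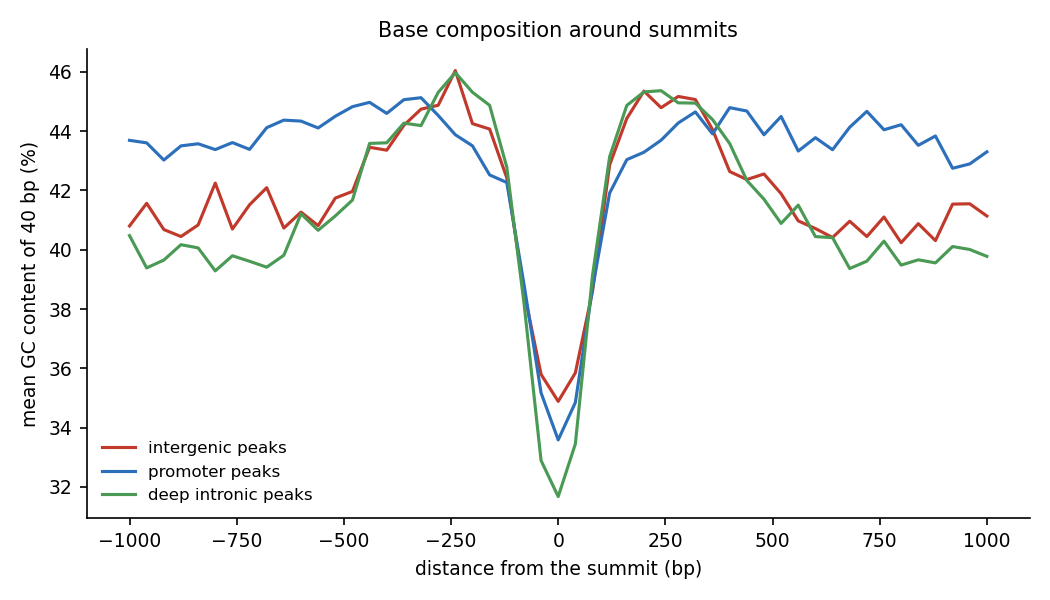
Mean GC content (%) of 40 bp windows against distance from the summit (bp) for intergenic, promoter and deep intronic peaks. All 3 curves dip within about 100 bp of the summit, and the intergenic and deep intronic curves have shoulders at about 250 bp on either side before they return to the level of the flanks.

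None of 27 consensus sequences of known factors searched on both strands was called at intergenic summits. Calls were by the exact McNemar test against the downstream flank with Benjamini-Hochberg adjustment at 0.05, which gave 0 more frequent (0%) and 0 less frequent, with 1 at an unadjusted p under 0.05. That was the TATA box, TATAAAA, in 74 summit windows and 46 flanks (adjusted p = 0.227, exact McNemar test). By the same exact test it was called with the upstream flank (32 matches, adjusted p = 0.00071) and with windows of 100 bp (46 against 19, adjusted p = 0.0242), so its call rests on the windows chosen. TATAAAA holds no G or C, and the part of base composition in it was not tested. The A tract AAAAAAAA, also without G or C, was in 39 summits against 62 upstream flanks (adjusted p = 0.317, exact McNemar test). GAGAGAG, the repeat bound by GAGA factor, matched in 15 summits and 19 flanks, the Pho sequence AAAATGGC in 14 and 8, the GT repeat of Combgap in 17 and 20, and the homeodomain sequence TAATTA in 71 and 60. None of these differences passed the exact test (adjusted p = 0.955 for each).

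A search of all 2080 6-mers, each with its reverse complement, found 94 more frequent at summits (4.52%) and 62 less frequent (2.98%) by the same test with adjustment over all 2080. Of the 94, 58 held at most 1 G or C, and 0 of the 62 held fewer than 3, and the part of base composition in these counts was not tested. With windows of 100 bp 36 were more and 31 less frequent, and without replicate 3 the counts were 61 and 24. CACTGA, chosen here because it had the lowest p, holds 3. It was in 105 of 455 summit windows (23.1%, 19.4 to 27.2) and in 29 flanks (6.37%, 4.47 to 9.004), a 3.62-fold ratio (adjusted p = 4.14e-09, exact McNemar test). The ratio was smaller with other windows: 2.63 with the upstream flank (adjusted p = 4.42e-06) and 2.23 with flanks 1000 bp away (adjusted p = 0.000198), by the same exact test. With windows of 100 bp it was 2.23 (29 summits against 13 flanks) and the call was lost (adjusted p = 0.173, exact McNemar test). Those windows reach 50 bp to either side, and 37 of the 118 CACTGA sites in the 200 bp windows lay that close to the summit. The share of CACTGA over all 175690 admitted windows of 200 bp was 7.95%. Its mirror AGTCAC, with the same bases in reverse order, was in 31 summits and 16 flanks. Next came AGTGTA (109 against 38), ACACTG (92 against 28) and CAGTGC (100 against 38), which overlap with CACTGA and its neighbouring bases.

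The bases around the 118 CACTGA sites of intergenic peaks were far from even. A T stood 2 bases before it in 68.6%, a purine directly before it in 86.4% and a purine directly after it in 87.3%. Then came an A in 65.3%, a purine in 88.1% and 3 further positions with A in 79.7%, 75.4% and 76.3%. Outside these 8 positions no base exceeded 40.7%. In the 156 sites of deep intronic peaks, which had no part in reading these positions, the same 3 A positions held A in 71.2%, 79.5% and 71.8%, and the base before CACTGA was a purine in 82.1%.

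A CACTGA with at least 6 of these 8 positions, the wider sequence, was in 78 intergenic summit windows (17.1%) and 5 flanks, which is a description, since the sequence was read from these peaks. In peaks not used to read it, it was in 97 of 603 deep intronic summits against 13 flanks (7.46-fold, adjusted p = 7.83e-17), in 69 of 1059 promoter summits against 12 flanks (5.75-fold, adjusted p = 4.73e-11) and in 51 of 476 other genic summits against 4 flanks (adjusted p = 3.28e-11, exact McNemar tests adjusted over 8). In the 8364 intergenic peaks below the threshold it was in 3.71% of summits and 1.43% of flanks (2.58-fold, adjusted p = 7.65e-20, exact McNemar test). The share in intergenic peaks was 10.6 points above that in promoter peaks (7.04 to 14.6) and 1.06 points from that in deep intronic peaks (-3.42 to 5.67).

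The site lay to one side of the summit and pointed at it. Within 200 bp of the summit 109 intergenic peaks had the wider sequence, and in 104 of them (95.4%, 89.7 to 98.0) the summit was on its A-rich side, at a median of 79.5 bp (quartiles 52.5 and 102). That pattern was noticed in these peaks and so carries no test here. In deep intronic peaks, tested after it was noticed, the summit was on the A-rich side in 128 of 130 (adjusted p = 5.01e-35, two-sided exact binomial test) at a median of 74.5 bp. By the same exact test it was so in 90 of 100 promoter peaks (adjusted p = 4.08e-17) and in 67 of 73 other genic peaks (adjusted p = 3.95e-14). Intergenic peaks below the threshold had 371 of 524 (70.8%, 66.8 to 74.5, adjusted p = 1.28e-21, exact binomial test), a smaller share. These tests took both sides as equally likely, although summits were poorer in G and C than their flanks. What part base composition has in the side, or in the excess of the wider sequence at summits, was not tested.

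**Figure D5:**
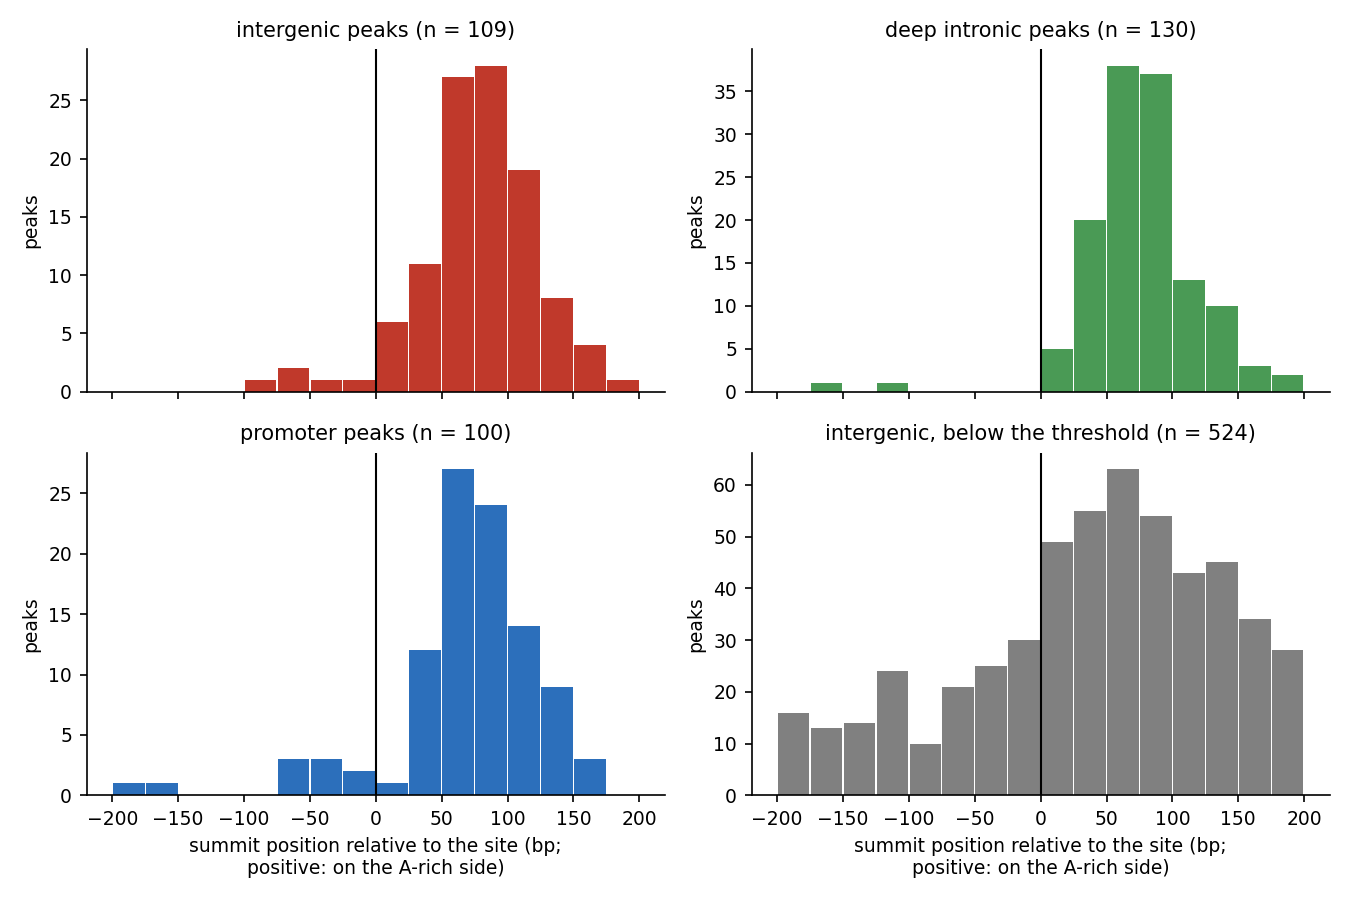
Position of the summit relative to the nearest best-matching wider CACTGA sequence (bp, positive on its A-rich side) for peaks with such a sequence within 200 bp, in bins of 25 bp. Of 109 intergenic peaks 104 lie right of 0, and the deep intronic and promoter peaks pile up at the same 50 to 100 bp, while intergenic peaks below the threshold spread more evenly.

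CACTGA and the wider sequence were compared between kinds of intergenic peak. Of the 12 strongest, 1, the peak between slp1 and slp2, had CACTGA in its window. Among the 91 strongest 15 had it (16.5%), against 90 of 364 others (24.7%), a difference of -8.24 points (-16.04 to 1.62). For the wider sequence that difference was -4.95 points (-11.9 to 4.26). CACTGA was less frequent in peaks with another thresholded summit within 1 kb (9 of 75, 12%) than in the others (96 of 380, 25.3%), a difference of -13.3 points (-20.5 to -3.13), while for the wider sequence the interval includes 0 (-7.75, -14.4 to 1.92). The wider sequence was in 60 of 297 peaks among the strongest of both replicates (20.2%) and in 18 of 158 others (11.4%), a difference of 8.81 points (1.59 to 15.2), against 5.30 (-2.97 to 12.8) for CACTGA. It was in 55 of 275 peaks over 2 kb from a start site (20%) and in 23 of 180 closer ones (12.8%), a difference of 7.22 points (0.11 to 13.8), against 7.85 (-0.09 to 15.3) for CACTGA. Beside Polycomb target regulators it was in 9 of 52, against 69 of 403 other intergenic peaks, a difference of 0.19 points (-8.68 to 13.1), against 8.68 (-2.99 to 22.7) for CACTGA. Intervals in this paragraph are not adjusted for the 14 comparisons computed.

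Most copies of the wider sequence in intergenic DNA did not lie near a thresholded intergenic summit. Of 2177 copies in admitted sequence, 127 (5.83%, 4.92 to 6.90) lay within 200 bp of an intergenic summit. A further 556 lay near a peak below the threshold only. The share expected from the sequence that these summits cover was not computed, so 5.83% is not shown to be high or low. The share near an intergenic summit was 2.02% (1.26 to 3.21) of copies with 6 of the 8 positions, 7.63% (6.08 to 9.55) of those with 7 and 9.51% (7.09 to 12.7) of those with all 8. The share that the reference marks as repeated or low-complexity sequence moved with it, at 21.02%, 46.6% and 98.1% of copies with 6, 7 and 8 positions. The reference marks 55 of the 86 copies in intergenic summit windows (64.0%), against 18.9% of all bases in those windows and 46.9% of the 2177 copies. What part such marking or the mapping of reads to repeated words has in the result was not tested.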

How the data were processed

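The peak lists of 2 biological replicates of Jing-GFP ChIP-seq from embryos, numbered 2 and 3, were used with the list from the pooled reads. Peaks were called against a control on dm6, and the irreproducible discovery rate gave the thresholded list from the replicate and pooled ones, per the file headers and the deposited notes. Chromatin was sonicated to 200 to 800 bp, per the labels. Aligner and peak caller were not given in the sources used here, and the control was not analysed here. Each deposited peak has a signal of unstated scale and a q-value as −log10. The lowest deposited −log10 q-value among the intergenic peaks was 2.04. The relaxed lists stop at 30000 peaks each. Signals served only to rank and describe peaks. The libraries' depth is unknown.

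Summits (1-based) were placed on the genes of Ensembl release 115, transposable elements left out, and on the Release 6 assembly, which holds every listed coordinate. A summit in a gene missing from that annotation would count as intergenic. Wilson, Newcombe and Poisson intervals at 95% treat neighbouring peaks as if independent and cover counting error only. Flanks for sequence tests were 200 bp centred 500 bp downstream on the plus strand. Sequence matches were tested by the exact two-sided McNemar test and the side of the summit by an exact binomial test, Benjamini-Hochberg adjusted within each family. The 6-mer search, the wider CACTGA sequence, its side and the upstream flank were added after seeing the data. Members and lists were chosen with earlier results of these data known. The rule for names took the 12 strongest peaks, the 5 gaps with most peaks, the 3 peaks farthest from a start site, the largest rank ratios between replicates and up to 3 genes of each of 19 lists. Of 27 consensus sequences the text names those of Polycomb-linked and homeodomain factors and the TATA box, chosen after their values were seen. Alternatives were other distances to a start site, protein-coding genes alone, the 1296 strongest peaks, each replicate alone, merged summits, other windows and other matching. Scripts were tested on simulated data. The tools were scipy 1.17.1, pandas 2.3.3, numpy 2.4.6 and, for figures, matplotlib 3.10.9, under Python 3.11.15.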

Additional observations from a re-analysis of the deposited data

How the results depend on the processing

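Of 308 recomputed values, 252 stayed within their interval or on their side of the threshold. Among values of the main results 105 stayed, 26 moved, 4 lost their call and 2 reversed. The other 147 that stayed were shares of gene lists, many short with wide intervals, and mean GC differences, judged against 1 SD over peaks. Intergenic peaks were 22.0% of the list with start sites at 250 bp, 14.8% at 1000 bp, 21.3% with protein-coding genes only and 13.7% of peaks above the list's median signal. The difference in share between intergenic and promoter peaks among the strongest of both replicates was -4.00 points with start sites at 250 bp, -4.99 with replicate summits within 50 bp, 1.17 above the median signal and 4.02 with the 5000 strongest of each replicate. Leaving out a replicate gave -5.05 to -1.53, the last without replicate 2. The median distance was 1857 bp with start sites at 250 bp, 3546 at 1000 bp and 4177 with coding genes only. GC was lower at the summit in 69.0% to 76.2% of intergenic peaks with a replicate left out. Of the consensus sequences, 1, the TATA box, was called with windows of 100 bp and 1 with the upstream flank. The CACTGA ratio was 2.23 with windows of 100 bp, where its call over all 6-mers was lost, and 2.23 to 3.91 over all alternatives. Density in gaps up to 2 kb was 39.9 per Mb with start sites at 250 bp and 11.6 above the median signal, and in gaps over 20 kb 10.9 with coding genes only and 2.27 above the median signal, which leaves fewer peaks by construction. Coding genes only gave 35.4% in divergent and 18.3% in convergent gaps, and start sites at 250 bp 18.9% in convergent gaps. The share of coding genes beside a peak was 7.81% with start sites at 1000 bp, 7.89% with coding genes only, 3.41% above the median signal, 5.76% with the nearest gene of any kind and 3.13% with the nearest start site's gene, and 6.58% to 7.13% with a replicate left out. For the Polycomb targets it was 25.8% above the median signal and 27.4% with the nearest start site. The summit lay on the A-rich side of the wider sequence in 89.4% when 4 positions had to match, and in 95.9% to 97.2% with a replicate left out. No paired analysis was possible because there is 1 group of samples. The causes of these changes were not tested. With depth unknown and 2 replicates, a peak absent from the list was not detected, and is not shown to be unbound.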
